A study of Mus musculus with 6 samples.

Results

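The Hox genes are homeobox transcription factor genes that lie in 4 clusters in the mouse genome. They were taken from the deposited gene table by symbol, as Hox followed by a letter from a to d and a paralogue number and nothing more, which gave 39 of 23358 rows. The Hoxa cluster held 11 of them, the Hoxb cluster 10, and the Hoxc and Hoxd clusters 9 each. RNA was sequenced from immature mouse chondrocytes, cartilage cells of the hip and knee (head and condyles of the femur, plateau of the tibia), taken from mice of a C57BL/6 - mix strain at post-natal day 5. The groups were Ezh2-deficient cells at days 3, 7 and 14 and wildtype cells at days 3, 7 and 14, each with 1 library (6 in all). All 6 cultures were micromasses, in which cells are plated at high density and form cartilage, in medium with insulin, transferrin, selenium, ascorbic acid and β-glycerol phosphate. The titles of the Ezh2-deficient libraries read Ezh2_cKO, a conditional knockout, and neither the Cre driver nor the number of animals behind a library was given in the labels. Nothing in the labels says that libraries came from separate cultures.

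Hox proteins give cells their position along the body axis and, in the limb, along its length. Within a cluster the genes stand in order of paralogue number. Low numbers act towards the head. The groups from 9 upwards, mostly of the Hoxa and Hoxd clusters, pattern the limb, with group 9 and 10 genes acting in the thigh or upper arm, group 11 genes in the shank or forearm and group 13 genes in the paw. Hox clusters are classic targets of Polycomb repressive complex 2, whose enzyme Ezh2 methylates histone H3 at lysine 27 and keeps genes silent where they are not used.

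Libraries held between 51985214 and 79323302 counts. Every count was even, and a fragment is taken here as 2 counts. CPM is the count per 1000000 counts of a library, with TMM factors (the trimmed mean of M values) applied to library size. The limit that a count of 0 allows, 3 fragments, lay between 0.0763 and 0.114 CPM. Ezh2 itself was at 14.7, 23.0 and 17.6 CPM in Ezh2-deficient libraries at days 3, 7 and 14, against 24.7, 40.2 and 27.9 CPM in wildtype libraries. Its log2 fold change was -0.74 ± 0.08 (SE), which did not pass (adjusted p = 0.0729, edgeR). Which part of Ezh2 was deleted was not given, so its level is no full check of the genotype. Genes of limb identity were read as a check of the tissue. Pitx1, the hindlimb regulator, was at 80.1, 56.0 and 21.2 CPM in Ezh2-deficient libraries and at 71.9, 56.1 and 28.9 CPM in wildtype libraries. Tbx4, its hindlimb partner, was at 10.8, 23.3 and 16.7 CPM in Ezh2-deficient libraries and at 11.1, 24.4 and 21.2 CPM in wildtype libraries. Tbx5, the forelimb counterpart of Tbx4, was also read, at 15.3, 6.28 and 2.77 CPM in Ezh2-deficient libraries and at 8.46, 4.68 and 1.71 CPM in wildtype libraries. Of 12 chondrocyte markers all were tested, and their summed level was 129328, 52797 and 21291 CPM in Ezh2-deficient libraries at days 3, 7 and 14, against 133079, 74882 and 35309 CPM in wildtype libraries. Xist, the RNA of the inactive X chromosome, was at 842, 677 and 513 CPM in Ezh2-deficient libraries and at 1065, 1130 and 1223 CPM in wildtype libraries. The 4 Y-linked genes summed to 122, 131 and 171 CPM in Ezh2-deficient libraries and to 90.8, 62.5 and 60.6 CPM in wildtype libraries, so the share of male and female cells cannot be told apart from genotype.

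The chondrocytes expressed Hox genes of the Hoxa and Hoxc clusters, a few of the Hoxd cluster and hardly any of the Hoxb cluster. Levels between genes are compared as the authors' RPKM, which is per length, and are given as the mean over the 6 libraries. At least 1 RPKM was reached by 7 of 11 Hoxa genes, 0 of 10 Hoxb genes, 7 of 9 Hoxc genes and 2 of 9 Hoxd genes. The 19641 rows with any count had a median of 2.79 RPKM. Hoxa10, a group 10 gene of the thigh and pelvis, stood highest of the Hox genes with 19.6 RPKM, above 88.2% of all 23358 rows. Hoxc10, its paralogue, followed with 14.4 RPKM. Hoxa11, a gene of the shank, had 8.48 RPKM, and Hoxa9, also of the posterior part of the cluster, 5.96 RPKM. Then came Hoxc6 with 5.54 RPKM and Hoxd8 with 5.02 RPKM, both from the middle of their clusters. Hoxc9 had 3.75 RPKM, Hoxd9 2.71 RPKM and Hoxd10 0.973 RPKM. In the Hoxb cluster the highest were Hoxb2 with 0.445 RPKM, Hoxb9 with 0.208 RPKM and Hoxb7 with 0.155 RPKM.

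The order of the leading genes can be read against the spread over libraries. Hoxa10 ranged from 11.3 to 27.7 RPKM and Hoxc10 from 10.7 to 17.9 RPKM. Their ranges overlapped, but Hoxa10 was the higher of the pair in each library. Hoxa11 ranged from 3.82 to 13.7 RPKM and overlapped Hoxa9 (3.17 to 7.96 RPKM), Hoxc6 (3.97 to 6.93 RPKM) and Hoxd8 (3.93 to 6.42 RPKM). Hoxa11 was above Hoxa9 in each library, while Hoxa11, Hoxc6 and Hoxd8 changed order between libraries. Paralogue group 10 alone took between 42.4% and 49.8% of all Hox counts in a library. The paw genes were low in each cluster, with Hoxa13 at 0.468 RPKM, Hoxc13 at 0.241 RPKM, Hoxd13 at 0.0700 RPKM and Hoxb13 at 0.0380 RPKM. Group 12 was nearly absent, with Hoxc12 at 0.0290 RPKM and Hoxd12 at 0.00156 RPKM.

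**Figure D1:**
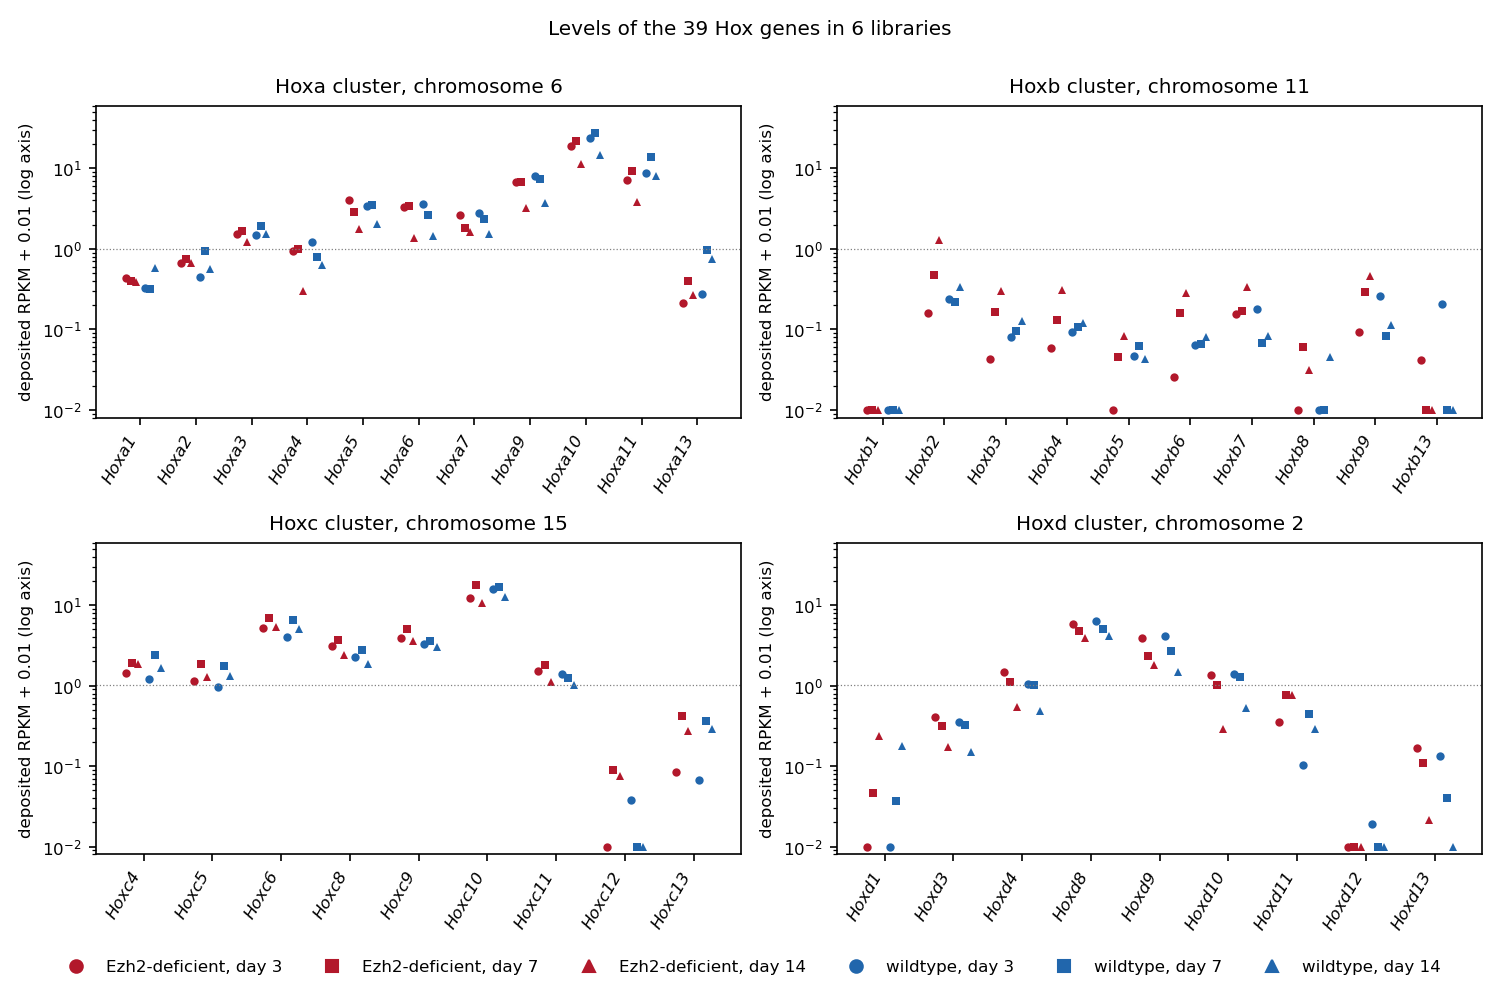
Deposited RPKM plus 0.01 on a log axis for each of the 39 Hox genes, in paralogue order within each cluster, with Ezh2-deficient libraries (red) left of wildtype libraries (blue) and 1 point per library (circle day 3, square day 7, triangle day 14). The dotted line marks 1 RPKM. Mean levels are highest in Hoxa10 (19.6 RPKM) and Hoxc10 (14.4 RPKM) and at most 0.468 RPKM in group 13. The Hoxb genes stay at or under a mean of 0.445 RPKM.

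The chromosomal places are those of the deposited table (build mm10), and all 39 genes lie at the same place in the GENCODE annotation of that build. The Hoxa cluster spans chromosome 6, 52155367 to 52260880, the Hoxb cluster chromosome 11, 96194361 to 96368253, the Hoxc cluster chromosome 15, 102921131 to 103036852, and the Hoxd cluster chromosome 2, 74668310 to 74765142. In GENCODE 12 of the 39 genes have an antisense gene over them and 14 another gene on their own strand. Of the 39 genes 8 overlap another row of the deposited table. Strandedness of the libraries was not given, so reads of a gene and of its antisense partner cannot be told apart.

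Promoter sequence from RefSeq (GRCm38.p6, 250 bases before to 50 after a start) was matched for 22 of the 39 genes, with 24 promoters. The 4 shown are those of Hoxa10, the gene of highest level, Hoxa11, which was about halved at day 14, Hoxd11, whose genotype difference was the largest, and Hoxb4, the tested Hoxb gene with a promoter in the table. Capitals mark CG dinucleotides, the sites of DNA methylation and the mark of CpG islands, to which Polycomb complexes are known to be recruited in mammals.
Hoxa10 promoter, chr6:52240805-52241104, minus strand: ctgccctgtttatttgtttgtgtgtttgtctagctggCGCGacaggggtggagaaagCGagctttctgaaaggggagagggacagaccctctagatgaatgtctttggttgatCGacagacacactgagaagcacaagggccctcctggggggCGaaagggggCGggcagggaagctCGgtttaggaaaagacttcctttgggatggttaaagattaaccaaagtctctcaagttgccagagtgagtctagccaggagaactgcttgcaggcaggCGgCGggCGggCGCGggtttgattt
Hoxa11 promoter, chr6:52245761-52246060, minus strand: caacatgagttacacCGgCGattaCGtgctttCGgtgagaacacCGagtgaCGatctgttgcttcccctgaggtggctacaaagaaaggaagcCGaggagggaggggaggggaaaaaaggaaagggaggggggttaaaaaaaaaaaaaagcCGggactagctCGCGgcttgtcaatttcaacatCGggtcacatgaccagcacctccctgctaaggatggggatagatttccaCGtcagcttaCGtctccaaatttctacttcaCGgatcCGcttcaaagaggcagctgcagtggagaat
Hoxd11 promoter, chr2:74682073-74682372, plus strand: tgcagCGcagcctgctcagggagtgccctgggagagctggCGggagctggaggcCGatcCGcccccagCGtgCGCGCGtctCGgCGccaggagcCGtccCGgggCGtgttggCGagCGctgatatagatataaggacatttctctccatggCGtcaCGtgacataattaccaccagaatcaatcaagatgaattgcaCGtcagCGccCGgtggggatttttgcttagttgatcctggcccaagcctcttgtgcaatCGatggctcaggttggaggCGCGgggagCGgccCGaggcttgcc
Hoxb4 promoter, chr11:96318017-96318316, plus strand: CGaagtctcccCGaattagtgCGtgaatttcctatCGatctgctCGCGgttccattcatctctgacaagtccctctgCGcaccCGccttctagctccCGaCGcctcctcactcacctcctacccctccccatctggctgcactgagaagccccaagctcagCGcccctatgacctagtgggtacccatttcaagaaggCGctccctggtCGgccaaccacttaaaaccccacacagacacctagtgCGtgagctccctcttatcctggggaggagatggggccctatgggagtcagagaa
These 4 windows hold 12, 15, 25 and 14 CG dinucleotides, in the order printed. Hoxa10 and Hoxd11 each have a second promoter in RefSeq that is not shown, with 21 and 4 CG dinucleotides. The windows shown are the ones next to the 5′ end of each gene in the deposited table. The 24 Hox promoters had a median of 14.5 CG dinucleotides in 300 bases, against 7.0 for all 32851 RefSeq promoters. Their median GC content was 57.7%, against 52.7%. An observed to expected CpG ratio of at least 0.6, a usual limit for a CpG island, was found in 12 of 24 Hox promoters (50%) and in 35.8% of all promoters. TGATTNAT, the joint site of Pbx and Hox proteins, searched on both strands, was found in 2 of 24 Hox promoters (8.33%), those of Hoxa2 and Hoxd11, and in 3.22% of all. TGACAG, the Meis site, was found in 2 (8.33%), those of Hoxa2 and Hoxa3, and in 19.2% of all. TATAAA, the TATA box, was found in 4 (16.7%) and in 13.6% of all. A match is a string of letters in this window and does not show binding.

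Of the 39 genes 33 had counts enough to be tested. Hoxb1, a gene of the hindbrain, had 0 counts in all 6 libraries. The other five not tested were Hoxb5, Hoxb8, Hoxb13, Hoxc12 and Hoxd12, each with between 0 and 11 fragments in a library. Hoxb13 was unusual among them, since 11 of its 13 fragments lay in the wildtype library at day 3, 2 in the Ezh2-deficient library at day 3 and 0 in the other 4 libraries. Of the 33, 28 reached the filter's limit of 0.147 CPM in all 6 libraries. Hoxb6 reached it in Ezh2-deficient libraries alone (2 of 3), Hoxb7 in 3 Ezh2-deficient libraries and 1 wildtype library, and Hoxd11 in 3 Ezh2-deficient and 2 wildtype libraries. Hoxd13 reached it in 2 Ezh2-deficient libraries and 1 wildtype library, and Hoxd1 in 1 of each genotype, at day 14.

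The first comparison asked which Hox genes differed between Ezh2-deficient and wildtype chondrocytes on all days together. On each day the Ezh2-deficient library had less RNA of the posterior Hoxa genes Hoxa10, Hoxa11 and Hoxa13, while Hoxc8, Hoxc9 and Hoxd11 were higher on each day. None of these differences passed over all genes tested. The 3 days stand in for replicates of a genotype, and p-values measure the spread between these 6 libraries only. In bulk RNA, fewer cells of a type and less RNA per cell cannot be told apart.

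In edgeR's quasi-likelihood test 0 of 33 Hox genes passed between genotypes, where 2 of 16280 genes did (0.0123%). At an unadjusted p under 0.05 there were 6 Hox genes, 3 higher and 3 lower, and 13.2% of all genes tested. DESeq2 called 1 Hox gene, Hoxa11, and 3.84% of all genes, and limma-voom called 0. The median log2 fold change of the 33 was 0.165, against -0.002 over all genes tested. Of the 33, 9 were higher in the Ezh2-deficient library on all 3 days (18.0% of all genes tested) and 5 were lower on all 3 days (18.3% of all genes tested). The 9 were Hoxc5, Hoxc6, Hoxc8, Hoxc9, Hoxc11, Hoxc13, Hoxd4, Hoxd11 and Hoxd13, and the 5 were Hoxa9, Hoxa10, Hoxa11, Hoxa13 and Hoxd10. The lists hold 6 Hoxc genes and 0 Hoxa genes among the higher, and 4 Hoxa genes and 0 Hoxc genes among the lower.

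Hoxa10 was at 77.7, 78.6 and 46.2 CPM in Ezh2-deficient libraries at days 3, 7 and 14, against 95.7, 99.9 and 55.7 CPM in wildtype libraries. The Ezh2-deficient library was lower on each day by a like amount, with ratios of 0.812, 0.787 and 0.830. Its log2 fold change was -0.31 ± 0.06, with an adjusted p = 0.177 (edgeR). Hoxa11, which shapes the tibia and fibula, was at 21.1, 23.4 and 11.2 CPM in Ezh2-deficient libraries, against 25.7, 35.3 and 22.4 CPM in wildtype libraries. The gap widened over the days, with ratios of 0.823 (95% counting interval 0.746 to 0.908) at day 3, 0.663 (0.608 to 0.722) at day 7 and 0.499 (0.433 to 0.574) at day 14. The log2 fold change of Hoxa11 was -0.62 ± 0.15 (adjusted p = 0.215 in edgeR, 0.0249 in DESeq2 and 0.166 in limma-voom). It passed in edgeR when either day 3 library was left out, at -0.79. The edgeR adjusted p was 0.0137 without the Ezh2-deficient library and 0.0146 without the wildtype library. In these fits 6.25% and 6.24% of all genes tested passed, against 0.0123% with all libraries. Both leave day 3 without a pair of genotypes, so both drop the day 3 difference. Leaving out another library gave adjusted p-values from 0.404 to 0.905.

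Hoxa13, the paw gene of this cluster, was at 0.350, 0.585 and 0.438 CPM in Ezh2-deficient libraries, against 0.455, 1.45 and 1.18 CPM in wildtype libraries. These are 13, 23 and 12 fragments in Ezh2-deficient libraries and 15, 51 and 31 in wildtype libraries, so the day 3 pair was too shallow to part (ratio 0.769, 0.337 to 1.73). At day 7 the ratio was 0.404 (0.236 to 0.673) and at day 14 0.372 (0.174 to 0.745). The log2 fold change was -1.06 ± 0.34 (adjusted p = 0.309, edgeR), the most negative of the 33. Hoxd10 (-0.35 ± 0.23) and Hoxa4 (-0.30 ± 0.32) were also among the 5 lowest values, and had adjusted p-values of 0.561 and 0.725. Hoxa4 was at 1.88, 1.73 and 0.584 CPM in Ezh2-deficient libraries, against 2.40, 1.36 and 1.18 CPM in wildtype libraries, so its sign was not the same on each day.

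Hoxc8, a gene of the thoracic and lumbar axis, was at 9.68, 10.1 and 7.52 CPM in Ezh2-deficient libraries, against 6.98, 7.57 and 5.36 CPM in wildtype libraries. Its groups overlapped slightly across days (7.52 against 7.57 CPM), and on the same day the ratios were 1.39, 1.33 and 1.40. The log2 fold change was 0.46 ± 0.12 (adjusted p = 0.239, edgeR; 0.0671 in DESeq2). Hoxc9, its neighbour, was at 8.85, 9.81 and 8.10 CPM in Ezh2-deficient libraries, against 7.31, 7.15 and 6.34 CPM in wildtype libraries. Here the groups did not overlap, a trait not counted over all genes tested, and the log2 fold change was 0.36 ± 0.12 (adjusted p = 0.315). Hoxc10, next in the cluster and the highest Hoxc gene, was at 30.8, 38.9 and 26.7 CPM in Ezh2-deficient libraries and 38.8, 37.1 and 30.0 CPM in wildtype libraries, with no common sign (-0.14 ± 0.10, adjusted p = 0.584). Hoxc6 was at 11, 12.6 and 11.1 CPM in Ezh2-deficient libraries and 8.16, 12.1 and 9.95 CPM in wildtype libraries (0.21 ± 0.12, adjusted p = 0.518).

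Hoxd11, the Hoxd partner of Hoxa11 in the shank, had the largest genotype fold change of the 33. It was at 0.457, 0.864 and 0.985 CPM in Ezh2-deficient libraries (17, 34 and 27 fragments), against 0.121, 0.511 and 0.342 CPM in wildtype libraries (4, 18 and 9 fragments). The lowest Ezh2-deficient value was under the highest wildtype value, but on each day the Ezh2-deficient library was higher, with ratios of 3.77 (1.23 to 15.4), 1.69 (0.929 to 3.18) and 2.88 (1.32 to 6.97). The log2 fold change was 1.33 ± 0.38 (adjusted p = 0.269, edgeR). Hoxa11 and Hoxd11 had opposite signs, and the level of Hoxd11 was 0.442 RPKM against 8.48 RPKM for Hoxa11. Hoxd13 was at 0.511, 0.280 and 0.0365 CPM in Ezh2-deficient libraries and 0.394, 0.0851 and 0 CPM in wildtype libraries, at or under the limit of a count of 0 in 2 wildtype libraries and 1 Ezh2-deficient library (1.04 ± 0.61, adjusted p = 0.517).

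**Figure D2:**
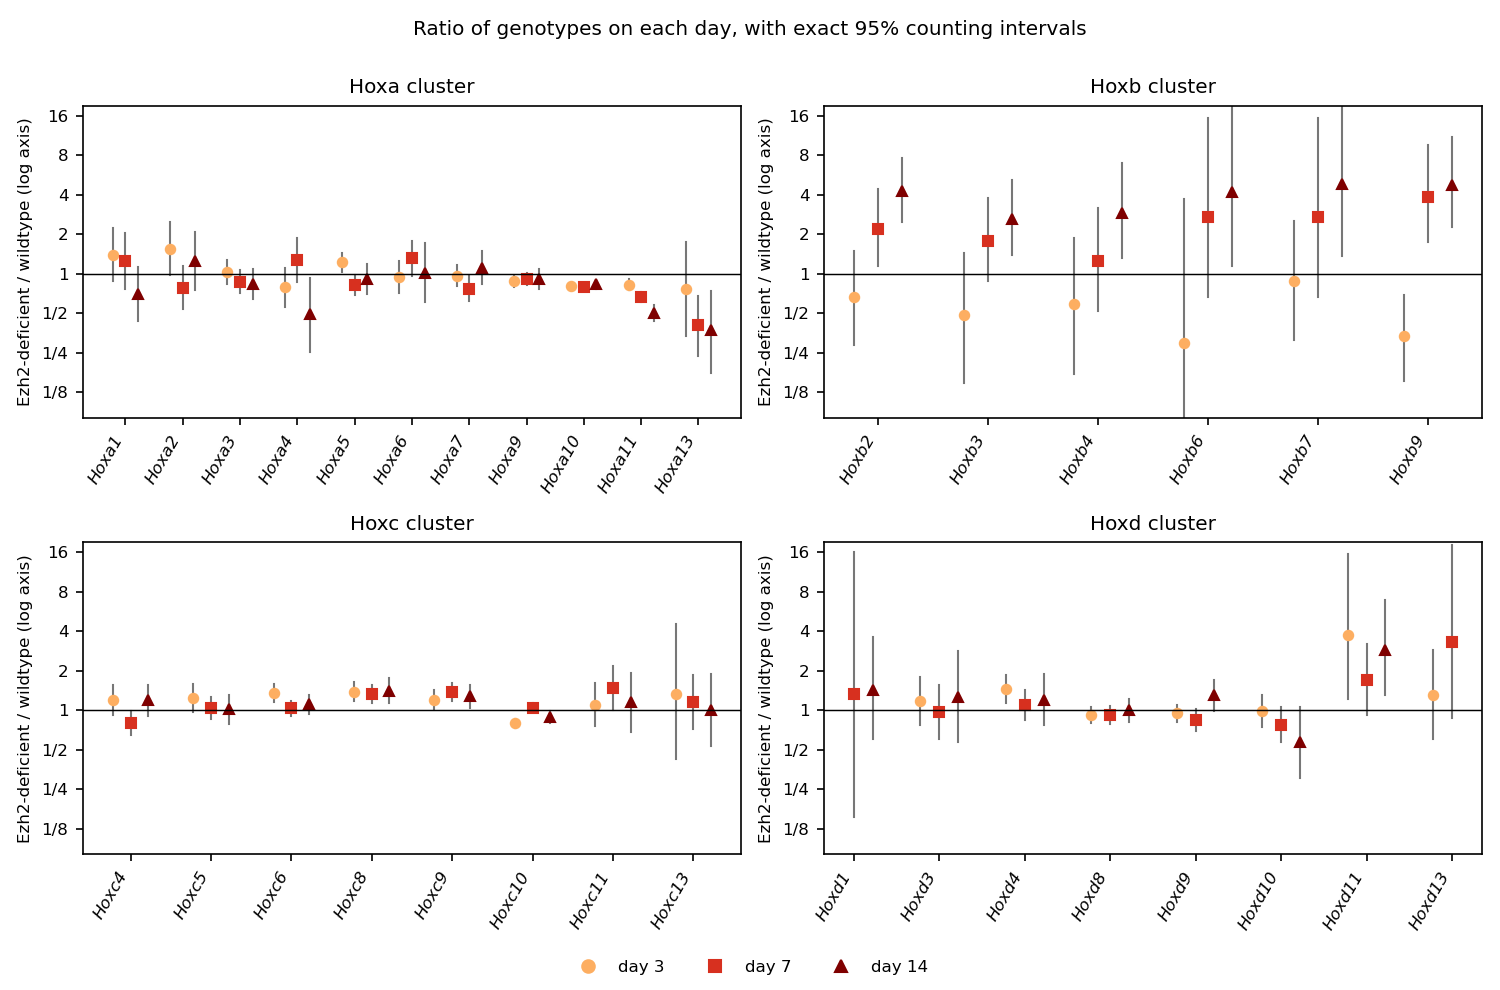
Ratio of the Ezh2-deficient to the wildtype CPM (log axis, 1 is no difference) for each of the 33 tested Hox genes at day 3 (circle), day 7 (square) and day 14 (triangle), with exact 95% counting intervals as lines, which stop at the edge of the axis. Points are missing where 1 of the libraries had 0 counts (Hoxd1 at day 3, Hoxd13 at day 14). Hoxa11 moves away from 1 with day (0.823, 0.663, 0.499), and the 6 plotted Hoxb genes lie under 1 at day 3 and above 1 at day 14. Of these 6 only Hoxb9 has a day 3 interval that excludes 1.

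The Hoxb cluster differed in its course. In Ezh2-deficient chondrocytes its small amount of RNA was larger on each later day, in wildtype chondrocytes it was not, and by day 14 the Ezh2-deficient library held more than wildtype. The 10 genes summed to 1.26, 3.43 and 7.99 CPM in Ezh2-deficient libraries at days 3, 7 and 14 (47, 135 and 219 fragments), against 2.76, 1.56 and 2.28 CPM in wildtype libraries (91, 55 and 60 fragments). The Ezh2-deficient library was the lower of the pair at day 3 (ratio 0.458, 0.315 to 0.658) and the higher at day 7 (2.20, 1.60 to 3.07) and day 14 (3.51, 2.62 to 4.75). Day 14 over day 3 was 6.32 (4.59 to 8.86) within Ezh2-deficient libraries and 0.826 (0.586 to 1.16) within wildtype libraries. These intervals cover counting error only, and with 1 library per genotype and day there is no replicate behind them.

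Hoxb2, the Hoxb gene of highest level, was at 0.323, 0.864 and 2.74 CPM in Ezh2-deficient libraries, against 0.485, 0.397 and 0.646 CPM in wildtype libraries. Hoxb3, its neighbour, was at 0.161, 0.661 and 1.39 CPM in Ezh2-deficient libraries, against 0.334, 0.369 and 0.532 CPM in wildtype libraries. Both were lower in the Ezh2-deficient library at day 3 and higher at days 7 and 14, though the day 3 intervals of both and the day 7 interval of Hoxb3 held 1. Hoxb9, at the posterior side of the cluster, was at 0.296, 0.864 and 1.61 CPM in Ezh2-deficient libraries (11, 34 and 44 fragments), against 0.880, 0.227 and 0.342 CPM in wildtype libraries (29, 8 and 9 fragments). Its ratio was 0.336 (0.152 to 0.694) at day 3, 3.81 (1.73 to 9.52) at day 7 and 4.70 (2.26 to 10.9) at day 14. Without the Ezh2-deficient or the wildtype day 3 library Hoxb9 passed in edgeR, higher by 2.08 on the log2 scale (adjusted p = 0.0310 and 0.0383). Of all genes tested 6.25% and 6.24% passed in these fits. Both fits leave day 3 without a pair of genotypes, so both drop the day on which Hoxb9 was lower. With all libraries the log2 fold change of Hoxb9 was 0.89 ± 0.83 (adjusted p = 0.686, edgeR).

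Hoxb7 was at 0.242, 0.229 and 0.547 CPM in Ezh2-deficient libraries and 0.273, 0.0851 and 0.114 CPM in wildtype libraries. Hoxb6 was at 0.0269, 0.229 and 0.474 CPM in Ezh2-deficient libraries and 0.0910, 0.0851 and 0.114 CPM in wildtype libraries, which are 1, 9 and 13 fragments in Ezh2-deficient libraries and 3 fragments in each wildtype library. Hoxb2, Hoxb6 and Hoxb7 were among the 5 largest genotype fold changes (0.96 ± 0.55, 0.98 ± 0.78 and 1.07 ± 0.61), and none passed (adjusted p = 0.508, 0.635 and 0.503, edgeR). These values leaned on single libraries. Without either day 3 library they were 1.62, 1.73 and 1.85 in the same order, without the Ezh2-deficient library of day 14 they were 0.31, 0.26 and 0.53, and without the wildtype library of day 14 they were 0.31, 0.26 and 0.51. Hoxb4 had 6, 14 and 27 fragments in Ezh2-deficient libraries and 9, 10 and 9 in wildtype libraries. Hoxb2, Hoxb3, Hoxb4, Hoxb6, Hoxb7 and Hoxb9 had ratios below 1 at day 3 and above 1 at days 7 and 14. The counting intervals of Hoxb4, Hoxb6 and Hoxb7 held 1 at day 3 and at day 7. The share of all genes tested with this order of ratios was not counted. Hoxb6 entered the test through Ezh2-deficient libraries alone. Of the Hoxb genes not tested, Hoxb5 had 0, 3 and 5 fragments in Ezh2-deficient libraries and 3, 4 and 2 in wildtype libraries, and Hoxb8 had 2 fragments in the Ezh2-deficient library at day 14, against 3 in wildtype.

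**Figure D3:**
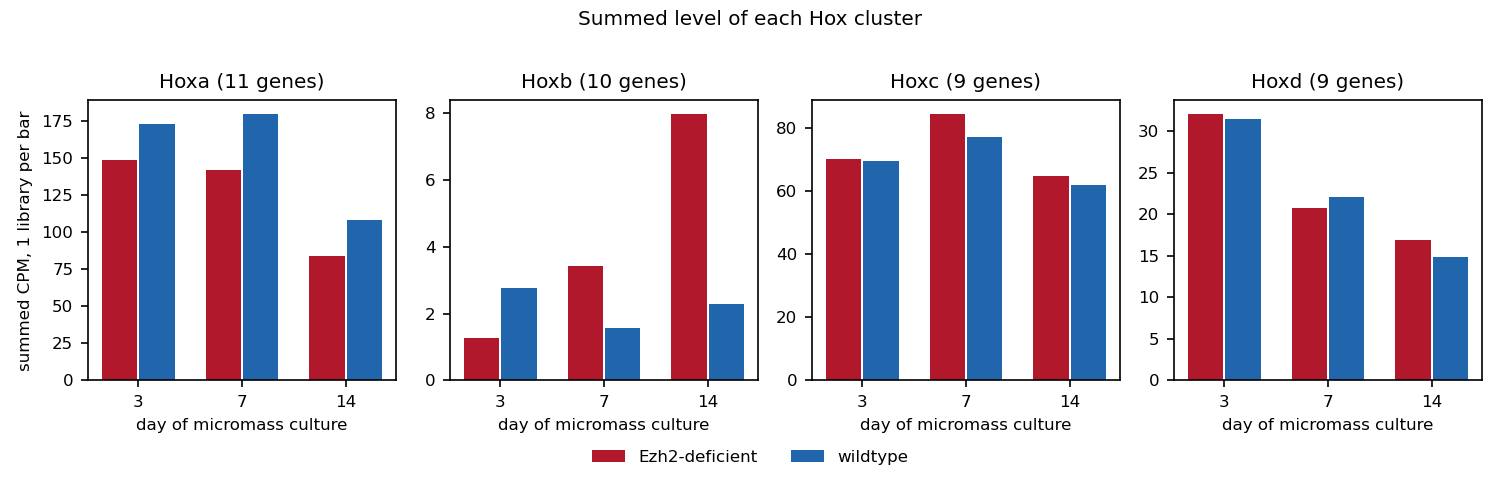
Summed CPM of the genes of each Hox cluster by day, with Ezh2-deficient libraries (red) left of wildtype libraries (blue), 1 library per bar, no error bars, and a scale of its own in each panel. The Hoxb sum reaches 7.99 CPM in the Ezh2-deficient library at day 14, against 2.28 CPM in wildtype, while for Hoxa the red bar is the shorter of each pair.

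The other clusters stood closer together. The Hoxa genes summed to 149, 142 and 84.0 CPM in Ezh2-deficient libraries, against 173, 180 and 108 CPM in wildtype libraries, with ratios of 0.863, 0.788 and 0.778. Without Hoxa10 the Hoxa sum was still lower on each day, with ratios of 0.926, 0.789 and 0.723. The Hoxc genes summed to 70.3, 84.5 and 64.9 CPM in Ezh2-deficient libraries and 69.5, 77.1 and 62.0 CPM in wildtype libraries. The Hoxd genes summed to 32.1, 20.7 and 16.9 CPM in Ezh2-deficient libraries and 31.5, 22.1 and 14.9 CPM in wildtype libraries. All Hox genes together summed to 252.8, 250.6 and 173.7 CPM in Ezh2-deficient libraries and 276.6, 281.1 and 187.1 CPM in wildtype libraries.

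A slope of the genotype difference on log2 day, per doubling, was tested with 1 residual degree of freedom. Of 33 Hox genes 0 passed in edgeR, where 0.614% of all genes tested did, and DESeq2 and limma-voom also called 0. At an unadjusted p under 0.05 in edgeR there were 4 Hox genes, against 13.3% of all genes tested. Those 4 were Hoxb9 (1.76 ± 0.47 per doubling, adjusted p = 0.210), Hoxb2 (1.20 ± 0.33, 0.227), Hoxb3 (1.07 ± 0.42, 0.365) and Hoxa11 (-0.32 ± 0.09, 0.209). The Hoxb genes had positive slopes and Hoxa11 a negative one.

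Within a single day a gene was counted when the higher library had at least 1 CPM, the libraries were at least 2-fold apart and the 95% counting interval excluded 1. At day 3, 0 of 22 Hox genes met this rule, against 2.36% of all genes. At day 7, 1 of 24 did, the lower Hoxa13, against 4.19% of all genes. At day 14, 5 of 25 did, against 5.91% of all genes. Hoxb2 (4.24, 2.48 to 7.66), Hoxb3 (2.61, 1.38 to 5.21) and Hoxb9 (4.70, 2.26 to 10.9) were higher, a direction in which 2.58% of all genes were counted. Hoxa11 and Hoxa13 were lower, a direction in which 3.32% of all genes were counted. At day 14 Hoxb2, Hoxb3 and Hoxb9 reached 1 CPM only in the Ezh2-deficient library. Hoxa13 reached it at days 7 and 14 only in the wildtype library. These genes thus met the CPM limit through the library in which they were high. The counts compare pairs of libraries and carry no test.

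Markers of other cell types were read between the genotypes as well, and 0 of them passed in edgeR. The 7 osteoblast markers summed to 196, 577 and 32740 CPM in Ezh2-deficient libraries, against 102, 163 and 9756 CPM in wildtype libraries. Of these day 14 sums Ibsp alone made up 29943 and 8245 CPM. At an unadjusted p under 0.05, 7 of 7 osteoblast markers were higher with 0 passing (edgeR). Of all genes tested 13.2% had an unadjusted p under 0.05, both directions together. The 4 adipocyte markers summed to 71.7, 333 and 121 CPM in Ezh2-deficient libraries, against 12.5, 168 and 64.7 CPM in wildtype libraries. Smooth muscle markers (4) summed to 169, 410 and 210 CPM in Ezh2-deficient libraries, against 59.9, 286 and 200.0 CPM in wildtype libraries. The 3 endothelial markers summed to between 1.69 and 5.39 CPM and the 4 skeletal muscle markers to between 0.620 and 4.65 CPM over the 6 libraries. Of 12 chondrocyte markers 7 were lower in Ezh2-deficient libraries at an unadjusted p under 0.05. The part of these cell types in the Hox differences was not tested.

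The next comparisons followed the Hox genes over days of culture, with the genotypes standing in for replicates of a day. Between day 3 and day 14 the Hoxa genes from Hoxa4 to Hoxa10 and 6 of 8 tested Hoxd genes fell, while the Hoxc genes from Hoxc4 to Hoxc11 did not pass in either direction. At day 14 against day 3, 14 of 33 Hox genes passed in edgeR, against 45.5% of all genes tested. Lower were 12, against 22.4% of all genes, and higher were 2, against 23.2% of all genes. The 12 were 6 Hoxa genes (Hoxa4, Hoxa5, Hoxa6, Hoxa7, Hoxa9 and Hoxa10) and 6 Hoxd genes (Hoxd3, Hoxd4, Hoxd8, Hoxd9, Hoxd10 and Hoxd13). The median log2 fold change of the 33 was -0.17, against -0.02 over all genes tested.

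Hoxa9 was at 20.4, 17.4 and 9.38 CPM at days 3, 7 and 14 in Ezh2-deficient libraries and at 23.4, 19.2 and 10.3 CPM in wildtype libraries. Its log2 fold change was -1.15 ± 0.11 (adjusted p = 0.00106, edgeR). Hoxa10 fell by 0.77 ± 0.08 on the log2 scale (adjusted p = 0.00125), with day 14 over day 3 ratios of 0.594 in Ezh2-deficient and 0.582 in wildtype libraries. In both genes the day 14 values were the lowest in each genotype.

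Hoxd10, a group 10 gene whose product patterns hindlimb and spinal cord, was at 3.17, 2.06 and 0.657 CPM at days 3, 7 and 14 in Ezh2-deficient libraries and at 3.22, 2.64 and 1.14 CPM in wildtype libraries. It fell by 1.87 ± 0.30 on the log2 scale (adjusted p = 0.00523). Hoxd9 was at 10.7, 5.49 and 4.93 CPM in Ezh2-deficient libraries and at 11.3, 6.47 and 3.80 CPM in wildtype libraries, a fall by 1.33 ± 0.20 (adjusted p = 0.00472). Hoxd4 was at 4.98, 3.23 and 1.79 CPM in Ezh2-deficient libraries and at 3.43, 2.95 and 1.48 CPM in wildtype libraries, a fall by 1.35 ± 0.23 (adjusted p = 0.00674). In each of these genes both day 14 values lay under all day 3 values.

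Hoxa5 was at 10.0, 6.13 and 4.27 CPM in Ezh2-deficient libraries and at 8.22, 7.46 and 4.67 CPM in wildtype libraries (-1.03 ± 0.20, adjusted p = 0.0103). Hoxa6 was at 3.07, 2.75 and 1.24 CPM in Ezh2-deficient libraries and at 3.25, 2.10 and 1.22 CPM in wildtype libraries (-1.36 ± 0.26, adjusted p = 0.00929). Hoxa7 was at 6.72, 4.02 and 4.05 CPM in Ezh2-deficient libraries and at 6.98, 5.22 and 3.65 CPM in wildtype libraries (-0.83 ± 0.20, adjusted p = 0.0230). These 3 genes sit side by side. Hoxa4, Hoxa5 and Hoxa6 lie within the span of the Hoxa3 row, so their reads may be divided with it. Hoxa4, whose values stand above, fell by 1.30 ± 0.39 (adjusted p = 0.0411).

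Hoxd8 was at 10.8, 7.65 and 7.30 CPM in Ezh2-deficient libraries and at 11.8, 8.31 and 7.26 CPM in wildtype libraries (-0.63 ± 0.14, adjusted p = 0.0162). Hoxd3 was at 1.51, 1.02 and 0.620 CPM in Ezh2-deficient libraries and at 1.27, 1.05 and 0.494 CPM in wildtype libraries (-1.32 ± 0.32, adjusted p = 0.0223). Both declined in each genotype. Hoxd4 lies within the span of the Hoxd3 row, so reads of Hoxd3 and Hoxd4 may be divided between them. Hoxd13, with the values given above, passed as lower (adjusted p = 0.0122), but its 1 and 0 fragments at day 14 make the fitted fold no bound, and it reached the filter's limit in both genotypes only at day 3, where it is high. Without Hoxd1 and Hoxd13 the calls were 11 lower and 1 higher.

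The genes that rose were Hoxc13 and Hoxd1, from the opposite ends of their clusters. Hoxc13, which in skin controls hair keratins, was at 0.242, 1.14 and 0.839 CPM in Ezh2-deficient libraries (9, 45 and 23 fragments) and at 0.182, 0.993 and 0.836 CPM in wildtype libraries (6, 35 and 22 fragments). It rose by 1.98 ± 0.38 on the log2 scale at day 14 (adjusted p = 0.0104) and by 2.32 ± 0.38 at day 7 (adjusted p = 0.00808). Hoxd1 had 0, 3 and 15 fragments in Ezh2-deficient libraries and 0, 2 and 10 fragments in wildtype libraries (adjusted p = 0.00684 at day 14). Its day 3 values are 0, so no fold is given. It reached the filter's limit only at day 14, where it is high, so that its call was fixed in part by the filter. Hoxa11 came close in this comparison without passing (-0.55 ± 0.18, adjusted p = 0.0556), with day 14 over day 3 ratios of 0.529 (0.462 to 0.604) in Ezh2-deficient and 0.872 (0.784 to 0.970) in wildtype libraries.

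**Figure D4:**
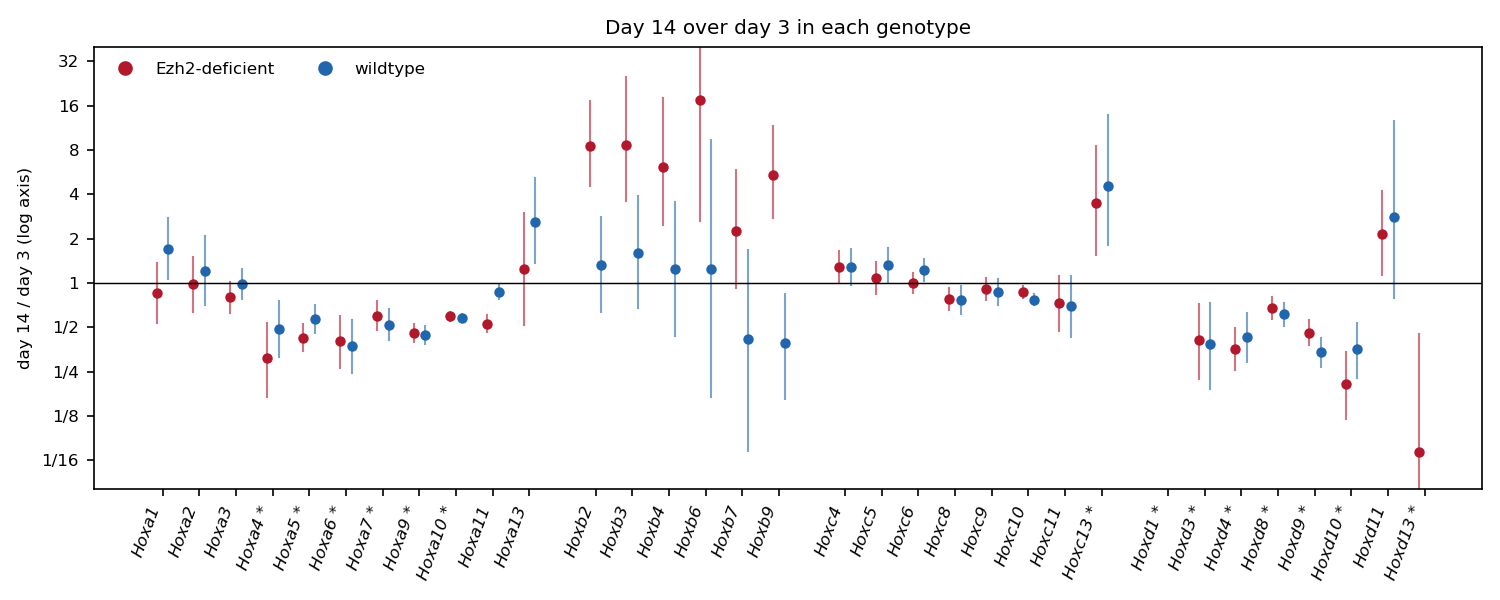
Day 14 over day 3 ratio of CPM (log axis) for each of the 33 tested Hox genes, Ezh2-deficient (red, left) and wildtype (blue, right), with exact 95% counting intervals, and an asterisk at the 14 genes that passed in edgeR. Ratios are not drawn where either day had 0 counts (Hoxd1 in both genotypes, Hoxd13 in wildtype). Most Hoxa and Hoxd genes lie under 1 in both genotypes, and the Hoxb genes stand above 1 in Ezh2-deficient libraries, as in Hoxb2 (8.48 against 1.33 in wildtype).

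The calls differed in how far they rested on a single library. Fits without 1 library also called a smaller share of all genes tested than the fit on all libraries. Hoxa9, Hoxa10, Hoxd4, Hoxd9 and Hoxd10 passed in all 6 fits that each left out 1 library. Without the Ezh2-deficient library of day 14, Hoxa4, Hoxa5, Hoxa6, Hoxd1, Hoxd3, Hoxd8 and Hoxd13 no longer passed (adjusted p from 0.0523 to 0.192), and 7 Hox genes were called in all. Without the wildtype library of day 14, Hoxa7, Hoxc13, Hoxd3, Hoxd8 and Hoxd13 no longer passed (0.0573 to 0.134). Without the Ezh2-deficient library of day 3 these were Hoxa4, Hoxa7 and Hoxd3 (0.0603 to 0.0879), and without the wildtype library of day 3 Hoxa4 and Hoxd3 (0.0572 to 0.102). Without the Ezh2-deficient library of day 7 these were Hoxa4, Hoxd3 and Hoxd8 (0.0512 to 0.0619), and without the wildtype library of day 7 Hoxa7, Hoxd3 and Hoxd8 (0.0504 to 0.0622).

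At day 7 against day 3, 3 of 33 Hox genes passed, against 36.1% of all genes tested, namely Hoxc13 (higher), Hoxd8 (-0.50 ± 0.14, adjusted p = 0.0400) and Hoxd9 (-0.88 ± 0.20, adjusted p = 0.0222). With total counts in place of TMM factors the split turned from 1 higher and 2 lower to 4 higher and 1 lower, and Hoxd8 no longer passed (-0.29, adjusted p = 0.161). Hoxc13, Hoxd8 and Hoxd9 no longer passed when either day 7 library was left out, in fits that also called far fewer of all genes tested. Without the Ezh2-deficient library of day 7 their log2 fold changes were 2.33, -0.45 and -0.67. Without the wildtype library of day 7 they were 2.35, -0.52 and -1.06. Hoxd8 passed in none of the 6 fits without 1 library (adjusted p from 0.0529 to 0.292), and without the wildtype library of day 3 Hoxd9 did not pass either (0.0572). For day 7 against day 3 each fit without 1 library called a smaller share of all genes tested than the fit on all libraries. At day 14 against day 7, 2 of 33 passed, both lower, against 5.66% of all genes tested. These were Hoxa9 (-0.89 ± 0.11, adjusted p = 0.0156) and Hoxa10 (-0.81 ± 0.08, adjusted p = 0.00972). Neither passed without the Ezh2-deficient library of day 7 (adjusted p from 0.132 to 0.199), the wildtype library of day 7 (0.106 to 0.150) or the Ezh2-deficient library of day 14 (0.0643 to 0.0982), and Hoxa9 did not without the wildtype library of day 14 (0.0579). Without the Ezh2-deficient library of day 3, 7 Hox genes and 15.2% of all genes tested passed, and without the wildtype library of day 3, 7 and 15.1%. At day 14 against day 7 a smaller share of all genes tested passed without a library of day 7 or day 14. The chondrocyte markers, given above, fell with day as well (12 of 12 passed at day 14 against day 3). In the same comparison 5 of 5 macrophage, 7 of 7 osteoblast, 4 of 4 hypertrophic chondrocyte and 7 of 8 fibroblast and tendon markers rose. Of all genes tested 22.4% passed there as lower and 23.2% as higher. The hypertrophic markers summed to 1043, 1611 and 4260 CPM in Ezh2-deficient libraries and to 853, 1187 and 8667 CPM in wildtype libraries. The fibroblast and tendon markers summed to 1489, 6910 and 7429 CPM in Ezh2-deficient libraries and to 1275, 5666 and 8763 CPM in wildtype libraries. Their part in the Hox changes was not tested.

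Noncoding rows next to the Hox genes were read in the same way. Hoxa11as, the antisense RNA that overlaps Hoxa11, was at 5.89, 6.81 and 4.60 CPM in Ezh2-deficient libraries, against 6.01, 11 and 9.65 CPM in wildtype libraries. Its ratios of 0.981 (0.806 to 1.19), 0.619 (0.528 to 0.725) and 0.477 (0.382 to 0.592) stand beside those of Hoxa11, and reads of the pair cannot be told apart without strand. Gm53, a row between Hoxb9 and Hoxb13, had 5, 23 and 18 fragments in Ezh2-deficient libraries and 1, 3 and 8 fragments in wildtype libraries. Hotair, an antisense RNA of the Hoxc cluster known in human cells to bind Polycomb proteins, was at 0.861, 0.661 and 0.255 CPM in Ezh2-deficient libraries and at 0.819, 0.426 and 0.494 CPM in wildtype libraries. Outside the clusters, Mtx2 next to Hoxd1 was at 22.1, 26.2 and 27.8 CPM in Ezh2-deficient libraries and at 18.8, 23.0 and 22.4 CPM in wildtype libraries, and Evx1 and Evx2, the homeobox genes beside group 13, had at most 1 fragment in a library.

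The clusters also hold microRNA genes, of which the miR-196 family is shown because its genes lie beside the group 9 genes and it is known to cut Hoxb8 mRNA. The RefSeq mature sequences are printed with the seed, bases 2 to 8, in capitals.
mmu-miR-196b-5p: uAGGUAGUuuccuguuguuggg
mmu-miR-196a-5p: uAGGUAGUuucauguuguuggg
Both share the seed AGGUAGU. The Mir196b row, beside Hoxa10 on chromosome 6, had 52, 30 and 7 fragments in Ezh2-deficient libraries and 63, 23 and 8 fragments in wildtype libraries, fewer on each later day in both. The rows of Mir196a-1 and Mir196a-2, in the Hoxb and Hoxc clusters, had at most 5 fragments in a library. Such reads come from longer RNA over the locus and do not measure the mature microRNA. Hoxb8 had 0, 6 and 2 fragments in Ezh2-deficient libraries and 0, 0 and 3 fragments in wildtype libraries, too few to compare.

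Genes that act with Hox proteins or on their chromatin were described from lists chosen by function. Of 11 TALE homeobox cofactors, whose proteins bind DNA together with Hox proteins, 0 passed between genotypes, and at an unadjusted p under 0.05 there were 3 higher and 0 lower. For this list and the lists below, the share of all genes tested at an unadjusted p under 0.05 was 13.2%, both directions together (edgeR). Pbx3 was at 16.8, 14.9 and 11.6 CPM in Ezh2-deficient libraries, against 8.52, 10.5 and 8.96 CPM in wildtype libraries (0.62 ± 0.15, adjusted p = 0.215). Meis2 was at 15, 20.0 and 13.8 CPM in Ezh2-deficient libraries, against 9.77, 11.8 and 11.5 CPM in wildtype libraries (0.55 ± 0.13, adjusted p = 0.216). In both genes, which were named for their small p, the groups did not overlap. The share of all genes tested without overlap was not counted. Meis3 (0.36 ± 0.12, adjusted p = 0.307) and Meis1 (0.33 ± 0.14, adjusted p = 0.401) were next, and over day 14 against day 3 Meis3 rose by 1.505 on the log2 scale (adjusted p = 0.00104) while Meis1 fell by 0.73 (adjusted p = 0.0208).

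Of 11 Polycomb repressive complex 2 genes 0 passed between genotypes, and Ezh2 and Aebp2 (-0.17 ± 0.06, adjusted p = 0.360) were lower at an unadjusted p under 0.05. Of 16 Polycomb repressive complex 1 genes, which read the methyl mark, 0 passed, and Bmi1 (0.35 ± 0.09, adjusted p = 0.245) and Phc2 were higher at an unadjusted p under 0.05. Of 11 trithorax and histone demethylase genes, which oppose Polycomb, 0 passed, and the Y-linked Uty was higher at an unadjusted p under 0.05 (0.96 ± 0.29, adjusted p = 0.283). DESeq2 and limma-voom counts were not taken for these lists. The Cdx genes, which switch on Hox clusters in the embryo, were at or under 0.0607 CPM in all 6 libraries.

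Of 19 genes named as limb patterning partners of Hox genes 16 were tested and 0 passed between genotypes. At an unadjusted p under 0.05 there were 4 higher and 2 lower, against 13.2% of all genes tested in both directions together. Wnt5a, a signal of limb outgrowth, was at 43.0, 37.9 and 65.0 CPM in Ezh2-deficient libraries, against 30.1, 26.6 and 44.3 CPM in wildtype libraries (0.53 ± 0.07, adjusted p = 0.0886). Epha7, an ephrin receptor known as a Hox target in the limb, was at 14.1, 15.1 and 8.90 CPM in Ezh2-deficient libraries, against 3.09, 6.50 and 5.28 CPM in wildtype libraries (1.38 ± 0.28, adjusted p = 0.174). Its groups did not overlap, a trait not counted over all genes tested. Epha3 (1.09 ± 0.20, adjusted p = 0.150) was also higher on each day, and Bmp7 (-1.26 ± 0.37, adjusted p = 0.280) was lower on each day. Tbx5, with the levels given above, had a log2 fold change of 0.66 ± 0.15 (adjusted p = 0.201).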

How the data were processed

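Counts per gene and RPKM values were deposited by the authors for 6 libraries, 1 per genotype and day. The counts are whole numbers and not normalized. RPKM values were scaled by the authors with a coding length and a library total, per the file headers, and the counts in the table sum to between 80.2% and 82.8% of those totals. Per the submitters' processing notes, CASAVA 1.9, TopHat 12.0.6, HTSeq and build mm10 were used, in roles that are not stated. The sources used here give neither strandedness nor annotation.

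The tool for tests was edgeR 4.0.16 in R 4.3.3 (quasi-likelihood F test, two-sided, TMM factors, filterByExpr grouped by day at a minimum count of 10, Benjamini-Hochberg adjustment over all 16280 genes tested, threshold 0.05). The model held day and genotype (2 residual degrees of freedom), or also genotype times log2 day (1 residual degree of freedom). The SE is the absolute log2 fold change over the square root of F. DESeq2 1.42.0, limma 3.58.1 and other scalings, filters and sets of libraries were alternatives. The fit was tested on simulated counts. A single day has 1 library per genotype, so ratios carry exact 95% binomial intervals on fragments (Clopper-Pearson, scipy 1.17.1) and folds a prior count of 2. Intervals cover counting error only. Columns without a sample numbered 0.

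Named with values were Hox genes that passed in a comparison or were counted on a single day, the 5 largest and 5 smallest genotype fold changes and the 3 highest RPKM per cluster. Of other lists up to 4 genes with the smallest p were named, and the trithorax list used 4 older symbols. Hoxc8, Hoxb4, Hoxb8 and Hoxb13 were added after their values were seen. The members and lists were chosen with earlier results of these data known.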

Additional observations from a re-analysis of the deposited data

Results flagged for a closer look

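Hoxb9 stood out because its genotype difference ran in opposite directions on different days. Its ratio of Ezh2-deficient to wildtype CPM at days 3, 7 and 14 was 0.336, 3.81 and 4.70, with counting intervals that excluded 1 on each day. The difference between single days was not tested, since each has 1 library per genotype. The slope of the genotype difference with log2 day had an adjusted p = 0.210 in edgeR.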

How the results depend on the processing

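Results were recomputed with other scalings, filters, models, tools and sets of libraries. Between genotypes DESeq2 called 1 Hox gene, against 0 in edgeR, and fits without 1 library called from 0 to 2. At day 14 against day 3 fits without 1 library called from 7 to 17 Hox genes, against 14. At day 7 against day 3, total counts only, DESeq2 and limma-voom each called 5 Hox genes, against 3, and fits without 1 library from 0 to 5. At day 14 against day 7 DESeq2 called 6, against 2, and fits without 1 library from 0 to 7. In single days a limit of 0.5 CPM gave 1, 3 and 8 Hox genes at days 3, 7 and 14, against 0, 1 and 5, and a fold of 1.5 gave 2 at day 7. All other alternatives stayed within 1.5 times. Causes were not tested, though fits without a library have fewer samples. The share of all genes called also differed between these fits, for genotypes from 0% to 6.25%. In the day comparisons this share differed as well, so Hox counts of these fits alone are no measure of the Hox genes. At day 14 against day 7 DESeq2 called 12% of all genes tested, against 5.66% in edgeR. At day 7 against day 3 total counts only, DESeq2 and limma-voom called 34.2%, 37% and 39.1%, against 36.1%. On single days a limit of 0.5 CPM counted 3.22%, 5.17% and 6.72% of all genes, against 2.36%, 4.19% and 5.91%. A fold of 1.5 counted 12.1% at day 7. The fold changes of single Hox genes gave 519 alternative values, of which 0 changed sign, 44 lost and 3 gained a call. These values cover only Hox genes with a call, an unadjusted p under 0.05 or an extreme genotype fold change, not all 33 tested. A change of sign was thus unlikely from the start. Total counts only moved the median of all genes to 0.189 at day 7 against day 3 and to -0.155 at day 14 against day 7. Directions there are thus relative to the TMM scale. The genotype test compares libraries of the same day, and without the day term it called 0 Hox genes, with 0 at an unadjusted p under 0.05. Depth limits the Hoxb genes most, whose cluster held between 47 and 219 fragments in a library.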
